A study of Mus musculus with 22 samples.

Results

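Epididymal white fat (epiWAT) of mice whose bone marrow came from donors lacking Gipr, the gene of the receptor for the hormone GIP, was set against epiWAT of mice that received wild type marrow. The comparison holds the 8 arrays of the series' 22 that are titled as epiWAT with Gipr-/- marrow (4) or WT marrow (4), and it is described across all genes. The animals were male C57BL/6J mice from Envigo. The 2 groups were bone marrow chimeras: Gipr-/- or WT marrow was placed in WT recipients, which had 6 weeks to rebuild their blood and then 14 weeks of a diet with 60% of its calories from fat. The 4 epiWAT arrays with Gipr-/-S100a9-/- marrow (the double knockout, for which the sources used here name no recipient) share the fit and are given beside the results where they bear on them. Ages, the share of donor cells reached, and which parts of Gipr and S100a9 were deleted are not stated there either. In such chimeras only cells of the blood lineages carry the deletion, while fat cells, vessels and stroma of the WT recipient keep the gene.

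GIP is a gut hormone released after a meal that strengthens insulin secretion through its receptor, a G protein-coupled receptor of pancreatic beta cells. Myeloid cells carry the receptor too. EpiWAT is the visceral fat pad beside the epididymis of the male mouse; in obesity it fills with macrophages, many of which take up lipid, crowd around dying fat cells and express genes of lysosomes and lipid handling. Fat cells in turn respond to insulin through insulin receptor substrates and the kinase Akt, and store or release triglyceride.

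Gene expression was read from Affymetrix whole-transcript arrays as 1 deposited value per gene and array, taken here as log2, for 19337 genes. The arrays hold no read depth, so their number limits the precision. The medians of the 12 epiWAT arrays lay between 6.13 and 6.54. Correlations between arrays of a group ran over 0.914 to 0.978 with Gipr-/- marrow and 0.947 to 0.982 with WT marrow, and 0 pairs were identical. Defining markers of fat were among the brightest genes on every array: Adipoq, the gene of adiponectin, was 18.88, 18.89, 19.13 and 19.20 with Gipr-/- marrow, against 19.30, 18.81, 19.18 and 19.17 with WT marrow, and Fabp4, a fatty acid binding protein of fat cells, was 19.68, 19.74, 19.82 and 19.82 with Gipr-/- marrow, against 19.78, 19.72, 19.77 and 19.81 with WT marrow. The groups overlapped for both genes, but their values lay near the top of the scale. They do not show that the groups held equal shares of fat cells, which was not tested. Of the 18 mature adipocyte genes described below, 14 were lower and 4 higher on average with Gipr-/- than with WT marrow. Their median log2 difference was -0.33. Nothing in the labels says that the arrays of a group are separate mice, so p-values measure the spread between these arrays, which may be technical.

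The epididymis and testis lie against this fat pad, so each array was checked for their genes, and 2 arrays of the comparison stood apart. To score a list, each gene was centred on its average over the 12 epiWAT arrays, and the centred log2 values were averaged over the list. For 31 testis germ cell genes it was 5.14, -1.19, -1.33 and 0.24 in Gipr-/- arrays 1 to 4 and 0.37, 1.67, -1.41 and -1.38 in WT arrays 1 to 4. Gipr-/- array 1 had 30 of the 31 genes more than 2 log2 units above the median of the other 11 arrays, and WT array 2 had 15. Prm2, a protamine that packs sperm DNA, was 16.07, 5.77, 4.94 and 9.16 with Gipr-/- marrow, against 10.51, 12.75, 4.39 and 4.98 with WT marrow. Ldhc, the lactate dehydrogenase of sperm, was 15.09, 4.41, 4.02 and 7.76 with Gipr-/- marrow, against 7.24, 9.13, 3.34 and 4.56 with WT marrow. Both genes were high in Gipr-/- array 1, intermediate in WT array 2, and low in Gipr-/- arrays 2 and 3 and in WT arrays 3 and 4.

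Genes of epididymis epithelium followed another order. The score of the 22 measured genes was 0.09, -1.33, -1.71 and -0.69 with Gipr-/- marrow and 0.14, 1.98, -1.33 and -0.70 with WT marrow, so WT array 2 was the highest of the 8. It was higher still, at 4.09, in double-knockout array 1. Lcn5, a lipocalin secreted into the epididymal duct, was 5.73, 6.03, 6.30 and 8.19 with Gipr-/- marrow, against 15.12, 16.46, 5.05 and 9.48 with WT marrow; WT arrays 1 and 2 were high. Spint4, a protease inhibitor of the same epithelium, was 6.71, 5.25, 5.06 and 5.43 with Gipr-/- marrow, against 8.88, 18.57, 4.68 and 10.98 with WT marrow. Adam7, a membrane protein that the epididymis passes on to sperm, was 15.05, 5.11, 5.41 and 11.85 with Gipr-/- marrow, against 10.84, 17.54, 9.50 and 10.36 with WT marrow, high in WT array 2 and in Gipr-/- array 1. On both lists the scores of the 2 groups overlapped.

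Another group of genes, a smooth muscle list written after values were seen, set Gipr-/- arrays 1 and 2 apart. Its score was 3.04, 3.35, -1.73 and 0.54 with Gipr-/- marrow, 2.85, -1.31, -1.15 and -2.18 with double-knockout marrow and -0.86, -1.13, -1.15 and -0.27 with WT marrow. Actg2, the actin of visceral smooth muscle, was 17.64, 17.95, 8.43 and 12.75 with Gipr-/- marrow, against 8.96, 9.75, 8.25 and 10.28 with WT marrow. Cnn1, the smooth muscle protein calponin, was 18.15, 18.16, 9.32 and 13.17 with Gipr-/- marrow, against 10.32, 10.23, 9.26 and 11.23 with WT marrow. Both were about as high in double-knockout array 1, where they stood at 17.27 and 17.87. In all, 1167 genes of Gipr-/- array 1, 252 of Gipr-/- array 2 and 580 of WT array 2 lay more than 2 log2 units above the median of the other 11 epiWAT arrays; among the other 5 arrays of the comparison this number was 15 to 194. In Gipr-/- array 4 the farthest genes were Upk1a, a urothelial membrane protein, and Psca, a surface protein of epithelia, at 11.13 and 8.17, against medians of 5.21 and 3.29 in the other 11 arrays. For the lists below, values are also given from fits that leave out 1 of the 8 arrays in turn, and for several results without both Gipr-/- arrays 1 and 2. The fit without both was chosen after values were seen.

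**Figure D1:**
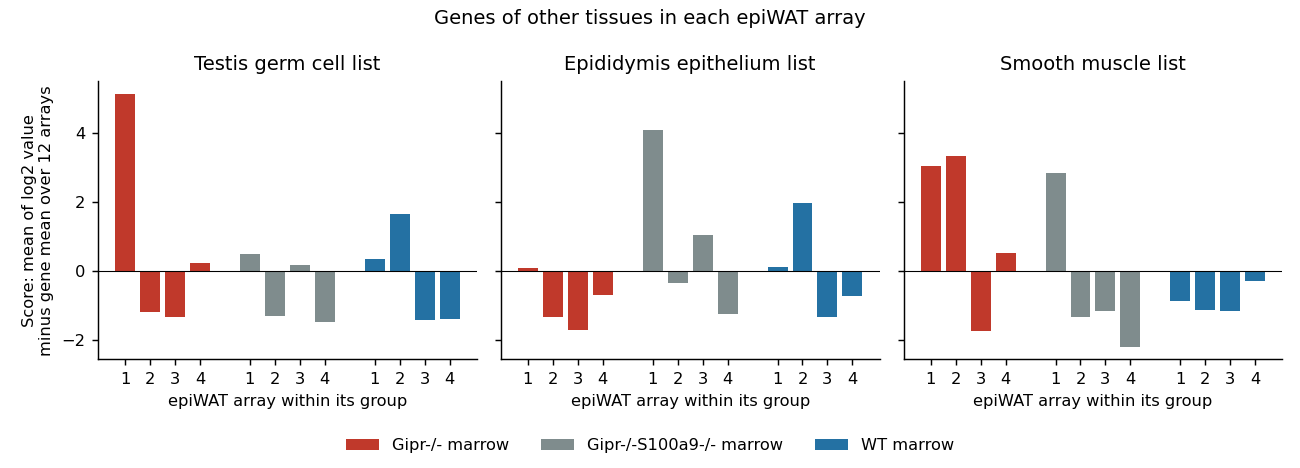
Scores of the testis germ cell, epididymis epithelium and smooth muscle lists (vertical axis, average of gene-centred log2 values) in each epiWAT array, with 4 bars per kind of marrow. The germ cell score of Gipr-/- array 1 was 5.14, the epididymis score of WT array 2 was 1.98, and Gipr-/- arrays 1 and 2 had the smooth muscle scores 3.04 and 3.35.

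Of 14502 genes tested with limma, 0 had a Benjamini-Hochberg adjusted p under 0.05 (0.0% of genes called), and the lowest adjusted p was 0.131. At an unadjusted p under 0.05, 484 genes were higher (3.34% of those tested) and 568 lower (3.92%) with Gipr-/- than with WT marrow. The groups did not overlap for 332 genes with the Gipr-/- arrays on top (2.29%) and for 399 genes with them below (2.75%). The median log2 difference over all genes was -0.02, and 48.2% of differences were above 0 (49.9% without Gipr-/- array 1). With the features that have no gene name in the annotation used here included, 6 of 16344 passed (0.0367%): the cadherin gene Cdh19 and 5 unnamed features. None of the genes described below passed the adjusted threshold over named genes, and each value is given as a measured difference. Whole fat pads were measured, so a lower signal from fewer cells of a type and from less RNA per cell cannot be told apart.

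The deleted gene itself does not check the labels, since fat cells, vessels and stroma of the recipient keep it. Where the probes lie relative to the deletion is also unknown here. Gipr values lay below the median of every array, and these medians ran over 6.13 to 6.54. Gipr was 5.21, 5.65, 5.51 and 5.14 with Gipr-/- marrow, against 5.07, 4.55, 4.81 and 4.71 with WT marrow, with a log2 difference of 0.59 (SE 0.40, adjusted p = 0.806); all 4 Gipr-/- arrays were above the WT arrays. S100a8 and S100a9 encode the 2 subunits of calprotectin, an alarmin of neutrophils and monocytes. S100a8 was 5.39, 6.86, 7.80 and 7.06 with Gipr-/- marrow, against 6.53, 5.03, 5.38 and 4.76 with WT marrow, a difference of 1.35 (SE 0.66, adjusted p = 0.705). Its groups overlapped through WT array 1 and Gipr-/- array 1. S100a9 was 4.56, 4.77, 5.64 and 5.75 with Gipr-/- marrow, against 5.89, 5.40, 4.95 and 5.24 with WT marrow. It differed by -0.19 (SE 0.32, adjusted p = 0.933), and by 0.02 without Gipr-/- array 1, where the direction turned.

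Irs1 had the smallest p of the genes on the lower side. It encodes insulin receptor substrate 1, the docking protein that the activated receptor phosphorylates. Irs1 had log2 values of 6.16, 6.88, 5.70 and 6.89 with Gipr-/- marrow, against 8.39, 7.84, 8.46 and 8.29 with WT marrow; all 4 Gipr-/- arrays were below all 4 WT arrays. The difference was -1.84 (SE 0.30, adjusted p = 0.219), which corresponds to 0.28 times the WT level. With double-knockout marrow Irs1 was 7.93, 8.62, 8.44 and 8.62, above every Gipr-/- array. Without Gipr-/- arrays 1 and 2 the difference was -1.95.

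Of 24 insulin signalling genes tested, 4 were lower and 1 higher at an unadjusted p under 0.05 (3.92% and 3.34% of all genes), and the median difference was -0.37. With 1 array left out in turn, 4 to 5 were lower and the median was -0.48 to -0.27; 1 was higher without WT array 1 and 0 without any other. The lower ones beside Irs1 were Insr, the receptor, Akt2, the Akt kinase that directs glucose uptake in fat cells, and Gys1, a glycogen synthase. Akt2 was 11.23, 11.30, 11.36 and 11.71 with Gipr-/- marrow, against 12.56, 11.89, 12.44 and 12.89 with WT marrow, a difference of -1.05 (SE 0.34, adjusted p = 0.579). Insr differed by -0.58 (SE 0.19, adjusted p = 0.579) and Gys1 by -1.08 (SE 0.31, adjusted p = 0.548); in both the groups did not overlap. Ptpn1, a phosphatase that switches the insulin receptor off, was the higher one, at 0.41 (SE 0.18, adjusted p = 0.674). Slc2a4, the insulin-regulated glucose transporter, had 8.85, 9.90, 9.76 and 9.27 with Gipr-/- marrow, against 10.26, 9.32, 10.25 and 10.74 with WT marrow, and its groups overlapped.

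Pygb, a glycogen phosphorylase that releases glucose units from glycogen, was 10.52, 10.43, 10.04 and 10.71 with Gipr-/- marrow, against 11.68, 11.40, 12.03 and 12.31 with WT marrow. The difference was -1.43 (SE 0.25, adjusted p = 0.219), and the lowest WT array lay above the highest Gipr-/- array. Double-knockout marrow gave 11.02, 11.15, 10.91 and 11.65, above every Gipr-/- array and, in 3 of 4 arrays, below every WT array. Of 19 glycogen genes, 3 were lower and 0 higher at an unadjusted p under 0.05 (background 3.92% lower), with a median of -0.13 (-0.23 to -0.08 with 1 array left out, and 2 to 4 lower). The 3 were Pygb, Gys1 and Phkg1, a subunit of the kinase that activates phosphorylase.

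Among genes of fat storage the largest difference was in G0s2. It encodes an inhibitor of adipose triglyceride lipase, the first enzyme of lipolysis. G0s2 was 9.35, 10.36, 8.40 and 10.88 with Gipr-/- marrow, against 12.99, 12.87, 12.82 and 13.16 with WT marrow; the Gipr-/- arrays were all lower and far more spread. The difference was -3.21 (SE 0.56, adjusted p = 0.219), or 0.108 times the WT level. Its target Pnpla2, the lipase, overlapped between groups, at 16.84, 18.13, 18.45 and 18.41 with Gipr-/- marrow, against 18.66, 18.35, 18.57 and 18.66 with WT marrow. Hcar1, the lactate receptor by which fat cells restrain lipolysis, was 8.54, 10.12, 10.53 and 10.62 with Gipr-/- marrow, against 11.68, 11.14, 12.20 and 12.20 with WT marrow and differed by -1.85 (SE 0.56, adjusted p = 0.554). Plin4, a coat protein of lipid droplets, differed by -0.98 (SE 0.44, adjusted p = 0.674). Of 18 lipolysis and droplet genes tested, 3 were lower and 0 higher at an unadjusted p under 0.05 (background 3.92% lower), and the median was -0.45. Over the fits without 1 array, 2 to 4 were lower and the median was -0.64 to -0.25, nearest 0 without Gipr-/- array 1. Without Gipr-/- array 2, 1 member was higher. Without Gipr-/- arrays 1 and 2, 1 was lower and 1 higher, with a median of -0.12. Plin2, a droplet coat protein also found in lipid-laden macrophages, pointed the other way at 1.08.

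Enzymes that make fatty acids and triglyceride lay mostly below 0 as well. Of 15 triglyceride synthesis genes, 4 were lower and 0 higher at an unadjusted p under 0.05 (background 3.92% lower; median -0.47). Without 1 array in turn this was 3 to 5 lower with a median of -0.50 to -0.39, and without Gipr-/- arrays 1 and 2 it was 1 lower. Pck1, which makes the glycerol backbone for triglyceride in fat, was 12.40, 12.03, 14.57 and 13.17 with Gipr-/- marrow, against 15.39, 14.56, 15.23 and 16.15 with WT marrow; Gipr-/- array 3 reached the lowest WT array, and the difference was -2.29 (SE 0.54, adjusted p = 0.387). Gpam, an acyltransferase of the first step, differed by -1.15 (SE 0.41, adjusted p = 0.615), Gpat3, another such enzyme, by -1.48 (SE 0.51, adjusted p = 0.59) and Mogat1, a monoacylglycerol acyltransferase, by -1.16 (SE 0.41, adjusted p = 0.622). Of 15 lipogenesis genes, 5 were lower and 0 higher at that p (background 3.92% lower; median -0.30). With 1 array left out this count was 1 to 5 (1 without Gipr-/- array 1, WT array 3 or WT array 4, 2 without Gipr-/- array 2, 3 without WT array 1), with a median of -0.64 to -0.26, and without Gipr-/- arrays 1 and 2 it was 1, with a median of -0.66. The 5 were Mlxipl, the glucose-sensing factor ChREBP, at -1.30, Fasn, fatty acid synthase, at -1.13, Acaca, acetyl-CoA carboxylase, at -1.37, Thrsp, a lipogenesis regulator, at -1.38, and Pnpla3, a droplet enzyme, at -1.57. Scd1, the desaturase that makes oleate, was 19.34, 19.42, 19.74 and 19.60 with Gipr-/- marrow, against 19.56, 19.54, 19.63 and 19.62 with WT marrow, close together in all 8 arrays near the top of the scale. Without Gipr-/- arrays 1 and 2, Fasn differed by -0.66 and Acaca by -0.73. The mature adipocyte score was -0.59, -0.34, 0.32 and 0.05 with Gipr-/- marrow and 0.43, -0.25, 0.42 and 0.65 with WT marrow. It was lowest in Gipr-/- arrays 1 and 2. Of 18 mature adipocyte genes, 4 were lower and 0 higher at an unadjusted p under 0.05 (background 3.92% lower), with a median of -0.33. With 1 array left out, 1 to 5 were lower (1 without Gipr-/- array 1 or WT array 1). Without Gipr-/- arrays 1 and 2, 1 was lower and the median was -0.04. The part of this list's score in the differences above was not tested.

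Cebpa, the transcription factor that sets the insulin-sensitive program of fat cells, was 11.06, 11.66, 12.28 and 11.90 with Gipr-/- marrow, against 13.68, 12.18, 13.41 and 13.50 with WT marrow and differed by -1.47 (SE 0.55, adjusted p = 0.632). Pparg, its partner factor, was 14.22, 14.60, 15.68 and 14.91 with Gipr-/- marrow, against 14.98, 14.39, 15.51 and 15.92 with WT marrow, with overlapping groups. Nnat, an imprinted gene of small membrane proteins that is strong in fat cells, was 12.62, 13.08, 13.60 and 13.96 with Gipr-/- marrow, against 15.70, 14.98, 15.77 and 15.30 with WT marrow. It differed by -2.12 (SE 0.37, adjusted p = 0.219), and all Gipr-/- arrays were lower. Angptl8, a secreted inhibitor of lipoprotein lipase that is induced by feeding, was 4.40, 5.73, 5.58 and 5.83 with Gipr-/- marrow, against 6.53, 7.32, 7.43 and 9.46 with WT marrow and differed by -2.30 (SE 1.02, adjusted p = 0.674). Rasd1, a small G protein induced by glucocorticoid, averaged 5.24 ± 0.57 with Gipr-/- marrow and 7.62 ± 1.09 with WT marrow (SD, n = 4 each) and differed by -2.37 (SE 0.58, adjusted p = 0.404); it was higher with double-knockout marrow than in any Gipr-/- array, at 9.15, 8.31, 10.32 and 8.25. Lep, the gene of leptin, differed by 0.59 (SE 0.54, adjusted p = 0.873).

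The sequence upstream of 3 genes whose groups did not overlap is given from RefSeq, as a window of 300 bases that ends just past the annotated start (build GRCm38.p6, given 5′ to 3′ on the gene's strand), since Irs1 and G0s2 lie at the low end and Gpnmb at the high end of the comparison. Capitals mark an E-box (CACGTG) or an AP-1 motif (TGANTCA), both palindromes that read alike on either strand. These motifs were picked after the sequences were read. The Irs1 window is chr1:82291390-82291689 on the minus strand, that of G0s2 chr1:193273139-193273438 on the minus strand and that of Gpnmb chr6:49036268-49036567 on the plus strand.
Irs1: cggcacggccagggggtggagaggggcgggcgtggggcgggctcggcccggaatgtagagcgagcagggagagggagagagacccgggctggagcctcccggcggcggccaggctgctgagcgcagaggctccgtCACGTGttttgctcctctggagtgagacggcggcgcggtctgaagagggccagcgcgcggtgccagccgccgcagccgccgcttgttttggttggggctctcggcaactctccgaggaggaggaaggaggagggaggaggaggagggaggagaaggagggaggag
G0s2: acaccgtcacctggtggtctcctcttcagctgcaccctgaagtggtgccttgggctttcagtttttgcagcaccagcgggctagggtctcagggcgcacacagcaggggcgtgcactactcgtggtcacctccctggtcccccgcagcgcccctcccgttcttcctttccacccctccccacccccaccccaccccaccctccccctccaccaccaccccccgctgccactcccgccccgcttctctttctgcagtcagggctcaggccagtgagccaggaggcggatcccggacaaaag
Gpnmb: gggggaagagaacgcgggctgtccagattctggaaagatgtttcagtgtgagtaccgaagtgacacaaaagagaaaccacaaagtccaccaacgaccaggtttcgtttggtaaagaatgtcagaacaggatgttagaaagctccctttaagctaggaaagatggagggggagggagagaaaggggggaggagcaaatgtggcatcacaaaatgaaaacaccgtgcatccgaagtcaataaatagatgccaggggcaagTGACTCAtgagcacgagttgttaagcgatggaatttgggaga
The Irs1 window holds 1 E-box, as do 7.15% of 32851 promoter windows of this length, and the Gpnmb window holds 1 AP-1 motif, as do 7.81%. The G0s2 window holds 0 of either. A match describes the letters only.

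Breakdown of the branched-chain amino acids leucine, isoleucine and valine, which fat cells burn for energy and for fatty acid synthesis, was the list with the most members lower at an unadjusted p under 0.05. Of 19 genes tested, 9 were lower and 0 higher at an unadjusted p under 0.05, against the background of 3.92%. In 6 of the 19 all Gipr-/- arrays lay below all WT arrays, as in 2.75% of all genes. The list's median difference was -0.62, against -0.02 over all genes. Bckdk, the kinase that switches off the branched-chain ketoacid dehydrogenase, was 9.31, 9.24, 9.19 and 9.25 with Gipr-/- marrow, against 10.08, 10.33, 10.54 and 10.69 with WT marrow. The 4 Gipr-/- arrays agreed closely, and the difference was -1.16 (SE 0.24, adjusted p = 0.317). Enzymes of the pathway itself lay on the same side. Bcat2, the mitochondrial aminotransferase of the first step, differed by -0.95. Bckdha and Bckdhb, the 2 E1 subunits of the dehydrogenase, differed by -0.87 and -0.83. Ivd, the leucine-branch dehydrogenase, differed by -1.03 (SE 0.34, adjusted p = 0.579), and Mccc1, a carboxylase subunit of that branch, by -0.93 (SE 0.28, adjusted p = 0.554). Aldh6a1, of the valine branch, was 13.32, 13.12, 13.48 and 13.60 with Gipr-/- marrow, against 13.80, 14.61, 14.25 and 14.33 with WT marrow. Bcat1, the cytosolic aminotransferase, pointed the other way at 0.57. The number of lower members over fits without 1 array was 5 to 10 (5 without Gipr-/- array 1), and the median was -0.77 to -0.36, nearest 0 without Gipr-/- array 1. Without that array 1 member was higher. Without Gipr-/- arrays 1 and 2, 2 were lower and the median was -0.41.

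Among the 15 lower genes of smallest p were Gstp1, Gstt1 and Gsta3. Glutathione transferases couple glutathione to reactive compounds. Gstp1 was 11.58, 11.89, 11.85 and 11.87 with Gipr-/- marrow, against 12.73, 13.36, 12.79 and 13.27 with WT marrow, Gstt1 was 7.66, 8.80, 8.31 and 8.70 with Gipr-/- marrow, against 10.31, 9.25, 11.08 and 10.27 with WT marrow and Gsta3 was 11.28, 10.69, 11.40 and 11.75 with Gipr-/- marrow, against 12.48, 12.81, 13.17 and 13.61 with WT marrow. Their differences were -1.24, -1.86 and -1.74, and Gstp2 differed by -1.05; Gstp1 and Gstp2 are near-identical copies whose probes can share signal. Of 19 genes in a glutathione transferase list written after values were seen, these 4 were lower at an unadjusted p under 0.05 and 0 higher (background 3.92% lower; 4 to 6 lower with 1 array left out). Cyp2e1, a cytochrome P450 that oxidizes ethanol and ketone bodies, was 13.71, 14.28, 15.52 and 15.13 with Gipr-/- marrow, against 16.56, 16.19, 17.27 and 17.11 with WT marrow and differed by -2.12 (SE 0.42, adjusted p = 0.317). Cyp27a1, the mitochondrial sterol hydroxylase, differed by -1.01 (SE 0.22, adjusted p = 0.328). Others among the 15 were Asns, asparagine synthetase, at -1.01, Man2a2, a mannosidase of N-glycan trimming, at -1.10, Fam13a, a gene tied to fat distribution in people, at -2.07, the rhomboid protease gene Rhbdl1 at -1.57 and 2010016I18Rik at -1.79.

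**Figure D2:**
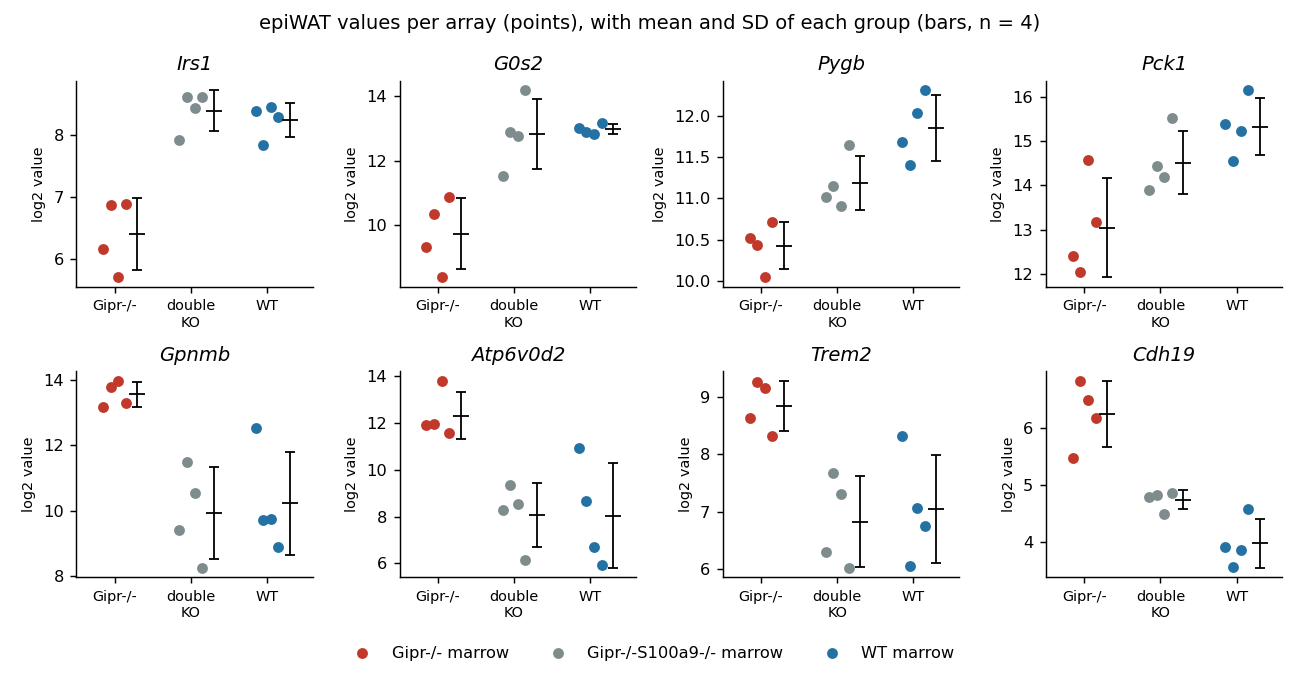
Log2 values of 8 genes in each epiWAT array, with points for arrays and bars for the mean and SD of each group (n = 4), and Gipr-/-, double-knockout and WT marrow from left to right. The 4 Gipr-/- arrays lie below all WT arrays for Irs1, G0s2 and Pygb and above them for Gpnmb, Atp6v0d2, Trem2 and Cdh19, while Pck1 overlaps at 14.57 and 14.56.

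The list with the most members higher at an unadjusted p under 0.05 was that of lipid-associated macrophages. These are the cells that surround dying fat cells in obese fat, clear their lipid and depend on the lipid-sensing receptor Trem2. Of 19 such genes tested, 12 were higher and 0 lower at an unadjusted p under 0.05, against a background of 3.34%. In 7 of them the groups did not overlap. The median difference was 1.08. Trem2 was 8.63, 9.25, 9.15 and 8.32 with Gipr-/- marrow, against 8.31, 6.06, 7.07 and 6.75 with WT marrow, a difference of 1.79 (SE 0.49, adjusted p = 0.504). Gpnmb, a membrane glycoprotein of lysosome-rich macrophages, was 13.18, 13.78, 13.97 and 13.30 with Gipr-/- marrow, against 12.53, 9.73, 9.74 and 8.90 with WT marrow. It differed by 3.33 (SE 0.77, adjusted p = 0.384), or 10.1 times the WT level.

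Atp6v0d2, a proton pump subunit of macrophages and osteoclasts, was 11.92, 11.97, 13.81 and 11.59 with Gipr-/- marrow, against 10.93, 8.65, 6.70 and 5.92 with WT marrow, a difference of 4.27 (SE 1.01, adjusted p = 0.387). Mmp12, the macrophage elastase, was 15.84, 15.24, 15.89 and 15.06 with Gipr-/- marrow, against 14.54, 10.63, 10.37 and 8.52 with WT marrow, a difference of 4.49 (SE 1.54, adjusted p = 0.583). In both genes the WT arrays ran over a wider span than the Gipr-/- arrays, with WT array 1 the highest of them. Among the remaining members, Cd9, a tetraspanin of these cells, differed by 0.93 (SE 0.25, adjusted p = 0.504), Ctsl, a lysosomal protease, by 1.01, Ctss, a cathepsin of antigen processing, by 1.52, Lipa, the lysosomal acid lipase, by 1.51, Lgals3, a galectin, by 1.52 and Itgax, the integrin CD11c, by 1.14. Apoe, an apolipoprotein that fat cells make too, and Lgals1, another galectin, had differences of -0.49 and -0.06; that of Lgals1 turned direction under quantile normalization and without WT array 1. The list score was 0.60, 0.78, 1.64 and 0.91 in the Gipr-/- arrays and 0.61, -0.79, -0.42 and -0.78 in the WT arrays. WT array 1 thus reached the range of the Gipr-/- arrays. With 1 array left out in turn, 8 to 13 of the list's genes were higher and the median was 0.82 to 1.35. Without WT array 2, 9 were higher and 1 was lower. Without Gipr-/- arrays 1 and 2, 12 were higher and the median was 1.53, and without Gipr-/- array 1 and WT array 2 it was 1.02.

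For markers that most macrophages share the median was nearer 0. Of 18 general macrophage genes, 0 were higher and 0 lower at an unadjusted p under 0.05 (3.34% and 3.92% of all genes), and the median was 0.30. That median depends on single arrays: it was -0.06 to 0.46 with 1 left out, turning direction without WT array 2, and 0.76 without Gipr-/- arrays 1 and 2. Adgre1, the classic surface marker of mouse macrophages, was 9.90, 10.42, 11.32 and 11.38 with Gipr-/- marrow, against 10.98, 8.79, 9.90 and 10.25 with WT marrow (difference 0.78, SE 0.57, adjusted p = 0.837). Csf1r, the receptor that keeps macrophages alive, was 12.23, 12.59, 13.79 and 13.52 with Gipr-/- marrow, against 13.76, 12.11, 12.84 and 13.47 with WT marrow (difference -0.01, SE 0.54, adjusted p = 0.998). The difference turned direction when arrays were left out, to 0.26 without Gipr-/- array 1 and 0.61 without Gipr-/- arrays 1 and 2. Cx3cr1, a chemokine receptor of monocytes and resident macrophages, and Maf, a factor of resident macrophages, lay lower in all Gipr-/- arrays, at -0.49 and -1.02. The difference between the 2 macrophage lists was not tested.

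Lysosome genes gave a smaller median. Of 24 tested, 6 were higher and 0 lower at an unadjusted p under 0.05 (background 3.34% higher), with a median of 0.13. The number higher in fits without 1 array was 2 to 7 (2 without Gipr-/- array 3, 3 without WT array 2 or WT array 4), with medians of 0.12 to 0.24, highest without Gipr-/- array 2. The proton pump supplied 5 of these 6: Atp6v0a1 at 0.86, Atp6v1a at 0.69, Atp6v1b2 at 0.61, Atp6v1c1 at 0.59 and its accessory protein Atp6ap2 at 0.55. The sixth was Gla, the alpha-galactosidase that splits glycolipids, which was 8.36, 8.40, 9.09 and 8.56 with Gipr-/- marrow, against 8.10, 7.53, 7.76 and 7.22 with WT marrow. Lysosomal membrane proteins that all cells carry had differences near 0, with Lamp1 at 0.10 and Lamp2 at 0.12.

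Cdh19, a cadherin of Schwann cells, had the smallest p of all genes. It was 5.47, 6.83, 6.49 and 6.18 with Gipr-/- marrow, against 3.91, 3.57, 3.86 and 4.59 with WT marrow, a difference of 2.26 (SE 0.31, adjusted p = 0.131), and double-knockout marrow gave 4.80, 4.82, 4.50 and 4.86. It passed the threshold without Gipr-/- array 1 (adjusted p = 0.0206). Of 13 Schwann cell and nerve genes tested, 2 were higher (Cdh19 and Egr2) and 1 lower (Scn7a) at an unadjusted p under 0.05. The background was 3.34% higher and 3.92% lower. The list's median was 0.23 (-0.05 to 0.27 with 1 array left out). Il7r, the interleukin 7 receptor, was 9.54, 10.38, 11.14 and 9.32 with Gipr-/- marrow, against 9.12, 7.27, 7.69 and 7.36 with WT marrow (difference 2.23, SE 0.48, adjusted p = 0.328). Il1rn, which encodes the antagonist of interleukin 1, was 6.05, 7.12, 7.44 and 6.87 with Gipr-/- marrow, against 5.55, 4.32, 4.23 and 4.89 with WT marrow (difference 2.12, SE 0.48, adjusted p = 0.353). Tnfrsf12a, the receptor of the cytokine TWEAK, was 10.83, 10.10, 11.55 and 10.53 with Gipr-/- marrow, against 9.31, 9.03, 9.23 and 9.13 with WT marrow (difference 1.58, SE 0.33, adjusted p = 0.317).

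F7, coagulation factor VII, was 6.46, 6.73, 8.48 and 6.69 with Gipr-/- marrow, against 5.65, 4.16, 3.90 and 4.63 with WT marrow, a difference of 2.51 (SE 0.57, adjusted p = 0.353). Myo1e, a membrane-binding myosin of phagocytes and other cells, was 9.78, 10.33, 10.91 and 10.44 with Gipr-/- marrow, against 9.37, 9.06, 8.79 and 9.06 with WT marrow (difference 1.30, SE 0.24, adjusted p = 0.239). Glipr1 differed by 1.92, Slfn2, a lymphocyte quiescence gene, by 1.37, Atp8b1, a lipid flippase, by 1.26 and Pde7a, a cyclic AMP phosphodiesterase, by 1.29. The DNA- and RNA-binding protein gene Purb differed by 0.98, Zc3h15 by 0.91 and Smim23 by 0.93. For all of these the Gipr-/- arrays lay above the WT arrays.

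Cd72, a B cell co-receptor that macrophages express as well, was 7.76, 8.42, 7.81 and 7.39 with Gipr-/- marrow, against 6.44, 5.99, 6.04 and 6.61 with WT marrow (difference 1.58, SE 0.31, adjusted p = 0.317). Of 11 B cell and plasma cell genes tested, 3 were higher and 0 lower at an unadjusted p under 0.05 (background 3.34% higher, median 0.78). Cd72 alone had all Gipr-/- arrays above all WT arrays, as in 2.29% of all genes, and 0 members had them below. Cd22, a B cell inhibitory receptor, was 6.36, 7.25, 4.11 and 5.90 with Gipr-/- marrow, against 5.25, 3.19, 3.68 and 4.07 with WT marrow, and Cd79b, a subunit of the B cell receptor, was 5.89, 7.10, 4.95 and 5.91 with Gipr-/- marrow, against 4.40, 4.66, 5.31 and 5.08 with WT marrow. With 1 array left out the count was 2 to 6 (6 without Gipr-/- array 3), with medians of 0.45 to 1.12, lowest without Gipr-/- array 2, and without Gipr-/- arrays 1 and 2 the count was 1. Both genes were highest in Gipr-/- array 2, as was Cd79a, the other subunit, at 9.68. Of 19 immediate early genes, 5 were higher and 0 lower at an unadjusted p under 0.05 (background 3.34% higher; median 0.51): Fos at 1.34, Fosl1 at 0.99, Junb at 0.95, Egr2 at 1.73 and Btg2 at 0.88. Fos, a subunit of the AP-1 factor, was 7.67, 7.42, 10.12 and 7.72 with Gipr-/- marrow, against 7.29, 6.30, 7.07 and 6.92 with WT marrow, and Gipr-/- array 3 was far above the rest. The count for the list was 1 to 5 (1 without Gipr-/- array 3, 2 without WT array 2, WT array 3 or WT array 4) with 1 array left out, and the median 0.28 to 0.79, lowest without Gipr-/- array 3.

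Of 25 cell cycle genes, 4 were higher and 0 lower at an unadjusted p under 0.05 (background 3.34% higher; median 0.48). Without 1 array the count was 2 to 5 (2 without Gipr-/- array 1 or WT array 4) and the median 0.24 to 0.62, lowest without Gipr-/- array 1, the array with the germ cell genes. Spc25, a kinetochore protein, was 7.87, 7.75, 8.25 and 7.34 with Gipr-/- marrow, against 6.08, 5.95, 6.36 and 6.93 with WT marrow (difference 1.47, SE 0.27, adjusted p = 0.248), and Cenpe, a kinetochore motor, differed by 1.59 (SE 0.37, adjusted p = 0.387). Mki67, the common mark of dividing cells, overlapped, at 9.14, 9.64, 10.07 and 9.31 with Gipr-/- marrow, against 9.74, 8.14, 9.08 and 9.27 with WT marrow. Sycp3, a protein of meiotic chromosomes that is on the germ cell list, did not follow that list: it was 11.91, 12.38, 12.64 and 12.04 with Gipr-/- marrow, against 10.62, 7.91, 9.20 and 9.41 with WT marrow. Its difference was 2.96 (SE 0.83, adjusted p = 0.504), and it was 3.06 without Gipr-/- arrays 1 and 2.

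In the lists that follow few or no members reached an unadjusted p under 0.05. Over all genes 3.34% were higher and 3.92% lower at that p. Of 17 interferon response genes, 0 were higher and 0 lower, while 15 of the 17 differences were below 0 (median -0.49). Irf7, a master factor of type I interferon, was 6.84, 7.64, 7.87 and 7.95 with Gipr-/- marrow, against 8.67, 7.31, 9.11 and 10.50 with WT marrow (difference -1.32, SE 0.61, adjusted p = 0.69). The interferon median was -0.73 to -0.18 with 1 array left out, nearest 0 without Gipr-/- array 1, and 3 members were lower without WT array 2. Of 22 oxidative phosphorylation genes 0 were higher and 0 lower (median -0.13, range -0.30 to -0.03 with 1 array left out). The same count held for 15 cytokine and chemokine genes (median 0.12, range 0.02 to 0.28) and for 11 mesothelium genes (median -0.63, range -0.82 to -0.44, with 5 lower without Gipr-/- array 4). It held too for 3 lists whose median turned direction with 1 array left out. For 13 endothelial genes the median was -0.35, and 0.11 without Gipr-/- array 1. For 11 adipose progenitor genes it was -0.05, and 0.20 without that array and 0.01 without Gipr-/- array 4. For 9 MHC class II genes it was 0.11, and -0.17 without WT array 2 or without Gipr-/- array 3. Of 11 neutrophil genes 1 was higher and 1 lower (median -0.05, range -0.15 to 0.10), and of 22 extracellular matrix genes 1 was higher and 1 lower (median 0.05, range -0.12 to 0.24).

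**Figure D3:**
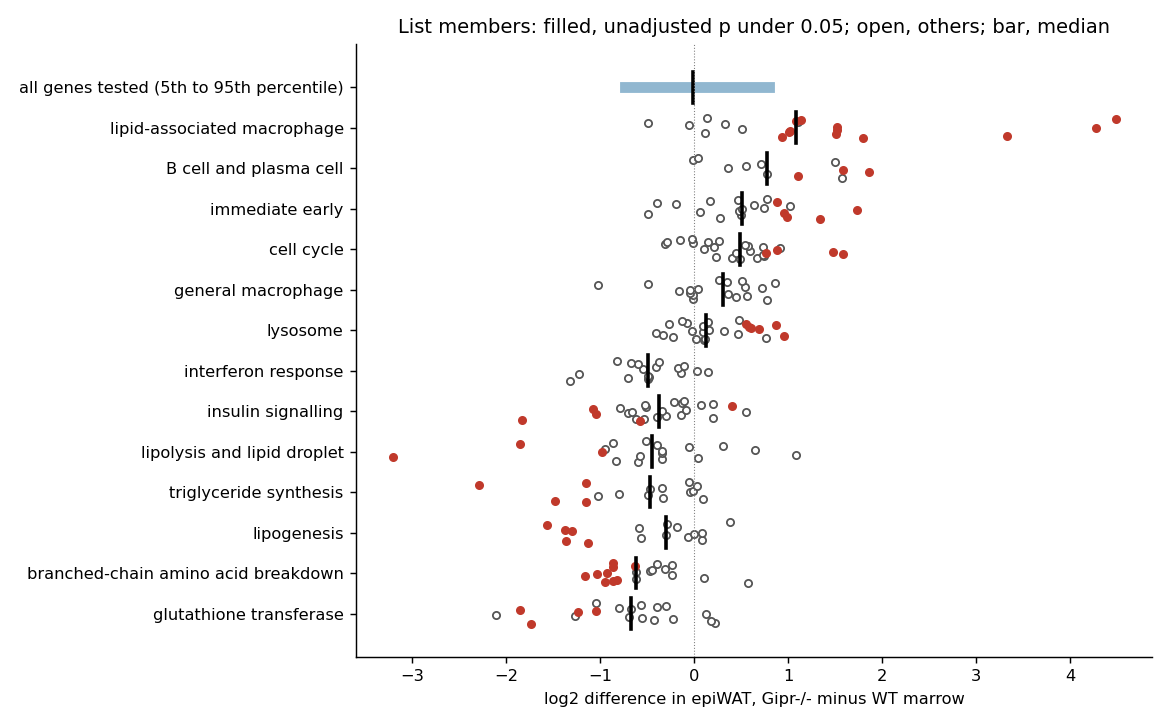
Log2 differences in epiWAT, Gipr-/- minus WT marrow (horizontal axis), of each tested member of 13 lists (rows), with the median of each list as a bar and a band with the spread of all 14502 genes on top. Lipid-associated macrophage genes center on 1.08 and branched-chain amino acid breakdown genes on -0.62; filled points have an unadjusted p under 0.05, and none passed the adjusted threshold.

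The largest differences of all among genes with non-overlapping groups were in genes high in Gipr-/- arrays 1 and 2. Ptgs2, the inducible cyclooxygenase, was 17.98, 17.76, 8.20 and 10.02 with Gipr-/- marrow, against 6.35, 6.65, 5.94 and 5.13 with WT marrow, and Pcp4, a calmodulin-binding peptide, was 15.87, 16.50, 7.61 and 10.79 with Gipr-/- marrow, against 4.42, 6.63, 5.11 and 4.59 with WT marrow. Double-knockout array 1 had them at 16.31 and 15.65. Gipr-/- arrays 3 and 4 lay above the WT arrays too, but by far less. The same 3 arrays were high for Mfsd2a, a lipid transporter, Mybpc1, a myosin-binding protein, Slc28a3, a nucleoside transporter, Rbfox3, a splicing factor, and Abcg2, an efflux pump, and they are the 3 arrays with the highest smooth muscle score. The differences of these 7 genes ran over 3.46 to 7.50. Without Gipr-/- arrays 1 and 2 the difference of Ptgs2 was 3.10, that of Pcp4 4.01 and that of Abcg2 1.25. The other 3 of the 10 largest were Mmp12, Atp6v0d2 and Gpnmb, which were 4.46, 4.65 and 3.41 without these arrays.

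On the lower side the 10 largest held G0s2, Rasd1, Angptl8, Nnat, Cyp2e1 and Fam13a, described above, and 4 others. Orm3, an acute-phase orosomucoid, was 5.96, 6.78, 7.56 and 7.74 with Gipr-/- marrow, against 8.75, 9.17, 9.77 and 12.67 with WT marrow (difference -3.08, SE 0.98, adjusted p = 0.579). Zfp185 was 7.68, 6.50, 6.43 and 7.50 with Gipr-/- marrow, against 8.42, 11.56, 9.69 and 8.24 with WT marrow, highest in WT array 2. Muc15, a membrane mucin, was 4.12, 4.53, 4.02 and 4.40 with Gipr-/- marrow, against 9.02, 9.49, 7.29 and 4.83 with WT marrow, and reached 16.76 in double-knockout array 1, the array with the highest epididymis score. Svs2, a seminal vesicle secretory protein, was 3.98, 4.81, 5.10 and 4.61 with Gipr-/- marrow, against 5.46, 9.99, 6.30 and 5.55 with WT marrow, so that WT array 2 alone was high. Muc15, Zfp185 and Svs2 were each highest among the 8 arrays in WT array 2, which holds germ cell and epididymis genes. For all 3 genes WT array 3, with an epididymis score of -1.33, was above WT array 4, with -0.70. The source of these differences was not tested.

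With the epididymis score of each array as a covariate, the same test called 96 genes (0.662%), 9 higher and 87 lower. All 96 had the same sign without the covariate, and 78 of them had an unadjusted p under 0.05 there. The genes called lower included Nnat at -2.37 (adjusted p = 0.00615), Cebpa at -1.92 (adjusted p = 0.0123), Irs1 at -1.96 (adjusted p = 0.0171), G0s2 at -3.46 (adjusted p = 0.0179), Pygb at -1.53 (adjusted p = 0.0181), Pck1 at -2.57 (adjusted p = 0.0358), Hcar1 at -2.23 (adjusted p = 0.035), Agpat2, an enzyme of triglyceride synthesis, at -1.42 (adjusted p = 0.0262) and Lipe, the hormone-sensitive lipase, at -1.16 (adjusted p = 0.0424). Those called higher included Cdh19 at 2.16 (adjusted p = 0.0161), Myo1e at 1.25 (adjusted p = 0.0435) and Slfn2 at 1.19 (adjusted p = 0.0424). The lipid-associated macrophage genes Gpnmb and Atp6v0d2 were not called, at adjusted p = 0.0947 and 0.0712. Double-knockout array 1 has the highest score by far, and without it the covariate fit called 47 genes (0.324%), 45 of them among the 96, and with the germ cell score as a second covariate it called 15 (0.103%), all 15 among them. Of the 47 genes 2 were higher and 45 lower, and of the 15 genes 1 was higher and 14 lower. Cdh19 was called in both of these fits, and Myo1e and Slfn2 in neither. The fit without a covariate called 0 genes both with and without double-knockout array 1. The smooth muscle score, which set Gipr-/- arrays 1 and 2 apart, was also used as the only covariate, a setting chosen after values were seen. That fit called 2 of 14502 genes, both higher and 0 lower. At an unadjusted p under 0.05, 851 genes were higher and 631 lower in it.

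The inguinal pad (ingWAT, under the skin and away from the male tract) gives the same marrow comparison on other arrays, 3 with Gipr-/- and 4 with WT marrow. The labels do not say whether the 2 pads came from the same mice. The ingWAT groups differed in genes of another tissue, skeletal muscle. Of 10 such genes, 5 were lower and 0 higher in ingWAT at an unadjusted p under 0.05, with a median of -4.03. In epiWAT 3 of these 10 were higher and 0 lower at that p (background 3.34% higher), with a median of 1.02. With 1 epiWAT array left out, 1 to 5 were higher and the median was 0.84 to 1.17. Without Gipr-/- arrays 1 and 2, 0 were higher and the median was 0.54. The part of muscle in the values of either depot and in the depot comparison was not tested. Of 14502 genes tested in ingWAT, 34 passed the adjusted threshold (0.234%). Of the 15 higher genes of smallest p in epiWAT, 13 were also higher in ingWAT, 5 of them at an unadjusted p under 0.05 and 0 the opposite way; the background there was 9.94% higher and 5.1% lower. Of the 15 lower genes, 13 were lower in ingWAT, 6 of them at an unadjusted p under 0.05. Irs1 in ingWAT was 6.90, 6.22 and 8.17 with Gipr-/- marrow, against 10.98, 9.26, 10.23 and 9.00 with WT marrow, a difference of -2.77 (SE 0.55, adjusted p = 0.0561). G0s2 there was 9.81, 7.38 and 11.99 with Gipr-/- marrow, against 13.97, 12.46, 13.53 and 13.47 with WT marrow, a difference of -3.63 (SE 0.84, adjusted p = 0.0763). Tnfrsf12a differed by 2.13 (SE 0.49, adjusted p = 0.0754) and Atp8b1 by 1.67 (SE 0.33, adjusted p = 0.0561). None of the 30 passed the adjusted threshold in ingWAT.

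The difference between the depots was tested as an interaction over all 22 arrays, each treated as independent. It called 0 of 14502 genes with limma (0.0%), with a lowest adjusted p of 0.053; 1153 genes (7.95%) had an unadjusted p under 0.05. The smallest p belonged to Slc16a12, a monocarboxylate transporter, whose difference was -1.15 in epiWAT and 1.73 in ingWAT (interaction adjusted p = 0.053). Cpq, a secreted peptidase, differed by -0.19 in epiWAT and 1.37 in ingWAT (interaction adjusted p = 0.053). Gsta3 was -1.74 in epiWAT and 0.81 in ingWAT, and Cyp2e1 -2.12 and 0.25 (interaction adjusted p = 0.273 and 0.34). Cdh19 was 2.26 in epiWAT and -0.13 in ingWAT (interaction adjusted p = 0.34). The lipid-associated macrophage list had a median of 1.08 in epiWAT and 0.64 in ingWAT, and the branched-chain list -0.62 and -0.06; no list was tested between depots.

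**Figure D4:**
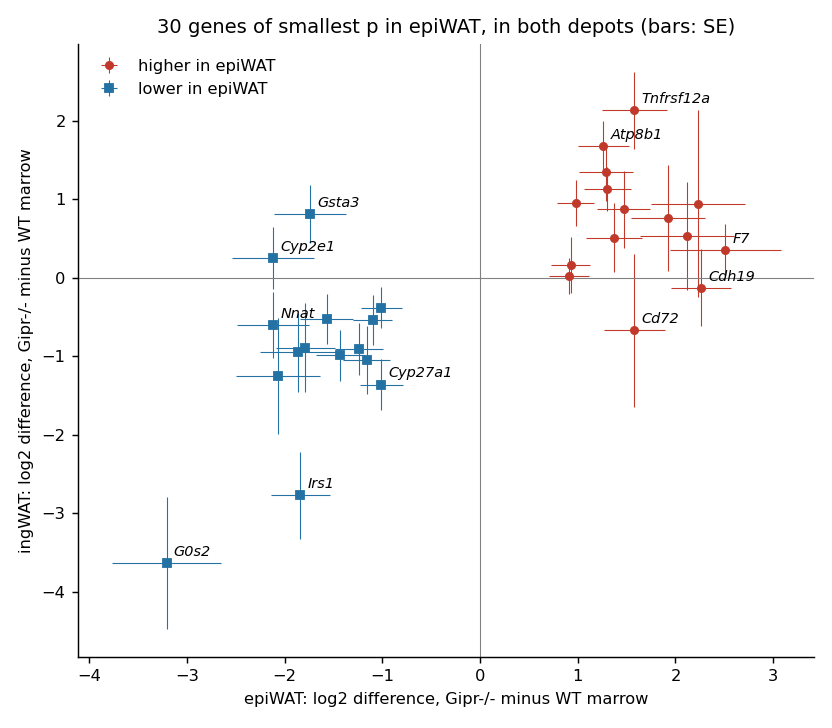
Log2 differences, Gipr-/- minus WT marrow, of the 15 higher and 15 lower genes of smallest p in epiWAT (horizontal axis), set against the same differences in ingWAT (vertical axis), with bars for the SE. Irs1 lies at -1.84 and -2.77 and G0s2 at -3.21 and -3.63, while Gsta3 and Cyp2e1 lie below 0 in epiWAT and above 0 in ingWAT.

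EpiWAT with double-knockout marrow was set against the same 4 Gipr-/- arrays, so the 2 comparisons share them and their differences tend to oppose each other. For double-knockout minus Gipr-/- marrow, Irs1 differed by 2.00 (SE 0.30, adjusted p = 0.143), G0s2 by 3.08 (SE 0.56, adjusted p = 0.192), Bckdk by 1.23 (SE 0.24, adjusted p = 0.192), Gpnmb by -3.62 (SE 0.77, adjusted p = 0.203), Atp6v0d2 by -4.25 (SE 1.01, adjusted p = 0.227) and Cdh19 by -1.50 (SE 0.31, adjusted p = 0.195). Gpnmb with double-knockout marrow was 9.43, 11.50, 10.54 and 8.26, below every Gipr-/- array, and Bckdk was 11.10, 10.16, 10.62 and 10.05, above every Gipr-/- array.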

How the data were processed

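RNA of whole fat pads (100 ng) was labelled with the WT PLUS kit and hybridised to Affymetrix whole-transcript arrays, per the labels' protocols. The deposited table holds 1 log2-scale value per feature and array, made by the authors with Partek 6.6 per the submitters' processing notes; its log base and normalization are not given in the sources used here, and log2 was taken from the range of 1.92 to 19.9. Of 21793 features, 19341 had 1 gene symbol and 2452 none; 19337 genes were kept. The 25% of genes with the lowest mean over the 12 epiWAT arrays were left out, and 14502 were fitted with limma 3.58.1 (R 4.3.3, lmFit and eBayes with a trend, two-sided, Benjamini-Hochberg threshold 0.05) in 3 groups. The fit was also run on simulated arrays with independent noise for each gene. It recovered 21.6% of changes of 1 log2 unit, 70.4% of 2, 92% of 3 and 94% of 4. The simulated arrays held no shifts shared by many genes, such as those of the tissue scores. The depot interaction used all 22 arrays. Genes named are Gipr, S100a8 and S100a9, the 15 smallest p and the 10 largest non-overlapping differences in each direction, the 5 smallest interaction p in each direction, up to 4 members of each list by p, any other member with its value, and the genes farthest from the other arrays. The members and lists were chosen with earlier results of these data known, and the smooth muscle and glutathione transferase lists after values were seen. Alternatives covered the samples in the fit, filters, normalization, eBayes settings, array weights, tissue scores as covariates and arrays left out.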

Additional observations from a re-analysis of the deposited data

Results flagged for a closer look

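Features without a gene name in the annotation used here also differed in epiWAT. Over all 16344 features tested, limma called 5 of them beside Cdh19. Feature TC0Y00000223.mm.2 was 11.42, 11.75, 12.70 and 11.40 with Gipr-/- marrow, against 8.40, 6.90, 7.84 and 7.78 with WT marrow, a difference of 4.08 (SE 0.38, adjusted p = 0.00149). Feature TC0X00001715.mm.2 was 9.31, 9.13, 9.95 and 8.62 with Gipr-/- marrow, against 6.30, 5.96, 6.38 and 5.61 with WT marrow, a difference of 3.19 (SE 0.28, adjusted p = 0.00149). A pair of further features had identical values on every array and a difference of 3.88 each (adjusted p = 0.0178). Feature TC0X00001502.mm.2 was lower, at 10.74, 10.85, 11.02 and 11.26 with Gipr-/- marrow, against 12.34, 12.54, 12.08 and 12.17 with WT marrow, a difference of -1.32 (SE 0.19, adjusted p = 0.0371). Double-knockout arrays lay between the groups for TC0X00001715.mm.2, at 7.10, 7.17, 7.37 and 7.21, and for TC0X00001502.mm.2, at 11.57, 11.64, 11.82 and 12.04. In ingWAT, TC0X00001715.mm.2 differed by 2.47 (adjusted p = 0.0316), TC0Y00000223.mm.2 by 2.66 (adjusted p = 0.0595), the identical pair by 2.62 (adjusted p = 0.0584) and TC0X00001502.mm.2 by -0.83 (adjusted p = 0.2).

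In 7 of 182 groups of 4 values examined, 1 array lay far from the others by Dixon's criterion, which chance alone meets in about 1 of 20 groups. With Gipr-/- marrow, F7 was highest in array 3 at 8.48, Gstp1 was lowest in array 1 at 11.58, and the interferon response score was lowest in array 1 at -1.28. With WT marrow, the lipogenesis score was lowest in array 1 at -0.16. WT array 2, the WT array with the highest germ cell and epididymis scores, had the lowest lipolysis and lipid droplet score, at -0.19, the lowest extracellular matrix score, at -0.57, and the highest Schwann cell and nerve score, at 0.24.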

How the results depend on the processing

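Of 14502 genes in epiWAT, limma called 0, with 1052 at an unadjusted p under 0.05; array weights called 26, the epididymis score as a covariate 96, the epididymis and germ cell scores together 15, and all features 6. Among settings chosen after seeing the data, the epididymis covariate without double-knockout array 1 called 47, and the smooth muscle covariate 2, both higher. The others chosen then called 0: without Gipr-/- arrays 1 and 2 (729 at an unadjusted p under 0.05), and without Gipr-/- array 1 and double-knockout array 1 (1103). Leaving out each array in turn gave 0 to 1. The remaining settings called 0, with 753 to 1295 genes at an unadjusted p under 0.05. For the depot interaction (0 called), array weights called 28 and leaving out each of the 15 Gipr-/- and WT arrays gave 0 to 2, the 2 without epiWAT Gipr-/- array 4; the double-knockout arrays were not left out there. Over 106 named genes and 2958 values under alternatives, 26 values of 6 genes turned direction. S100a9 (-0.19) was 0.17 with array weights, 0.02 without Gipr-/- array 1 (-0.38 to 0.02 over arrays left out in turn), also 0.02 without that array and double-knockout array 1, 0.33 without Gipr-/- arrays 1 and 2, and 0.03 without Gipr-/- 1 and WT 2 or with the smooth muscle covariate. Csf1r (-0.01) was 0.01 with quantile normalization, 0.12 with array weights, 0.23 and 0.13 without WT arrays 1 and 4 (-0.32 without WT array 2), 0.26 and 0.13 without Gipr-/- arrays 1 and 2, 0.26 without Gipr-/- 1 and double-knockout 1, 0.61 without both Gipr-/- 1 and 2, and 0.67 with the smooth muscle covariate. Lgals1 (-0.06) was 0.01 with quantile normalization, 0.10 and 0.03 without WT arrays 1 and 4 (-0.33 without WT array 2), 0.09 without Gipr-/- array 2, 0.22 without Gipr-/- 1 and 2, and 0.45 with the smooth muscle covariate. Cpq (-0.19) was 0.03 with both covariates and without Gipr-/- 1 and 2, and 0.01 without Gipr-/- 1 and WT 2. Lep (0.59) was -0.02 with both covariates, and Lamp2 (0.12) was -0.04 with the smooth muscle covariate. The cause was not tested for any of these. For 36 of the genes at least 1 alternative passed the threshold. No paired analysis was possible because the labels give no replicate numbers and the numbers used here only name arrays.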
